A study of Homo sapiens with 6 samples.

Results

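HERV-W is the endogenous retrovirus family that RepeatMasker annotates as HERV17-int, the internal part that once held gag, pol and env, and LTR17, the long terminal repeat that flanked it on both sides. Its elements were followed in total RNA of 4 cell lines of atypical teratoid rhabdoid tumor (AT/RT), a childhood brain tumor defined by loss of SMARCB1, a subunit of the SWI/SNF chromatin remodeling complex. Every LTR element named HERV17-int or LTR17 was taken, whatever its level, which gave 1740 of the 720177 elements in the LTR files: 907 HERV17-int and 833 LTR17. The 6 libraries are 1 of CHLA 02, a pair of technical replicates of CHLA 04 (rep 1 and rep 2), 1 of CHLA 05 and a second pair of CHLA 06, and lists of 6 values below keep that order. Every cell line stood for 1 biological sample, so no test between cell lines was possible. All cells were untreated and grew in the same DMEM:F12 medium with EGF, basic FGF and B-27, and the series holds no cells with SMARCB1 restored and no other cell type. SMARCB1 itself had 13.5 to 26.2 TPM (a read density scaled by length and to the same total in each library) over the 6 libraries, with 114 to 202 reads in each, although the cell lines are described as lacking its expression. Where in the gene these reads lie was not checked.

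An LTR is made of U3, R and U5, in this order. U3 holds the promoter, the RNA starts at R, and the polyadenylation signal lies upstream of the border between R and U5. HERV-W is best known for ERVW-1, which encodes syncytin-1, the envelope protein that fuses trophoblast cells in the placenta. Many HERV-W copies are known to be processed copies: L1 enzymes reverse transcribed a HERV-W RNA and inserted it, so the copy begins at R, ends at R and carries a poly(A) tail, in place of 2 whole LTRs. A whole LTR17 without internal part is usually a solo LTR, left by recombination between the LTRs of a provirus.

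LTR17 copies share their promoter letters, counted here in GRCh38 from the 5' end of the element. Among the 471 LTR17 of at least 700 bp, 96.2% held CCAAT on their own strand, with a median first position of 114, and 87.7% held TATAAA, with a median first position of 228. Of 16686 other LTR elements of 700 to 873 bp, 60.8% held CCAAT and 37.3% TATAAA on their own strand. On the opposite strand, CCAAT was found in 47.3% and TATAAA in 1.70% of these LTR17. ATTAAA, a common variant of the polyadenylation signal, was in 82.2% of LTR17 and 29.7% of the others, and AATAAA, the usual signal, in 7.64% and 60.5%. CACGTG, the E-box letters that MYC proteins can bind, was found in 0.849% of LTR17 and 7.92% of the others on either strand. ATGCGGGT, letters that GCM1 can bind, was in none of the 471 LTR17 and in 0.342% of the others on either strand. The searched letter runs that hold AAA can share bases where they overlap. A match here is a description of letters, not of a bound site. Long LTR17 with at least 5 reads in a library (46) and those with no read at all (361) held TATAAA in 91.3% and 87.0% of cases and CCAAT in 89.1% and 96.95%.

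Most LTR17 elements fell in 3 sizes. Whole copies of at least 700 bp were the most frequent (471), 174 elements measured between 280 and 360 bp, and 82 between 430 and 560 bp. Outside these sizes were 82 fragments of 17 to 279 bp, 4 elements of 408 to 425 bp and 20 of 567 to 699 bp. Of the 280 to 360 bp elements, 152 lay on the 3' side of an internal part, 2 on its 5' side and 20 stood alone. Of the 430 to 560 bp elements, 73 lay on the 5' side, 1 on the 3' side and 8 stood alone. The elements between 280 and 360 bp held the U3 part with the promoter letters: 160 of 174 had CCAAT, 148 had TATAAA, and 139 had ATTAAA within their last 30 bases. The next 20 bases of the genome held at least 14 A in 132 of them (75.9%), in 0 of the 82 mid-sized elements and in 0 of the 471 whole ones. It was also so for 27 of the 82 fragments below 280 bp (32.9%) and 1 of the 20 elements of 567 to 699 bp. Of the mid-sized elements, 28 had CCAAT and 4 TATAAA. Such ends, shortly after the polyadenylation signal and before a run of A, are those described above for processed copies.

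**Figure D1:**
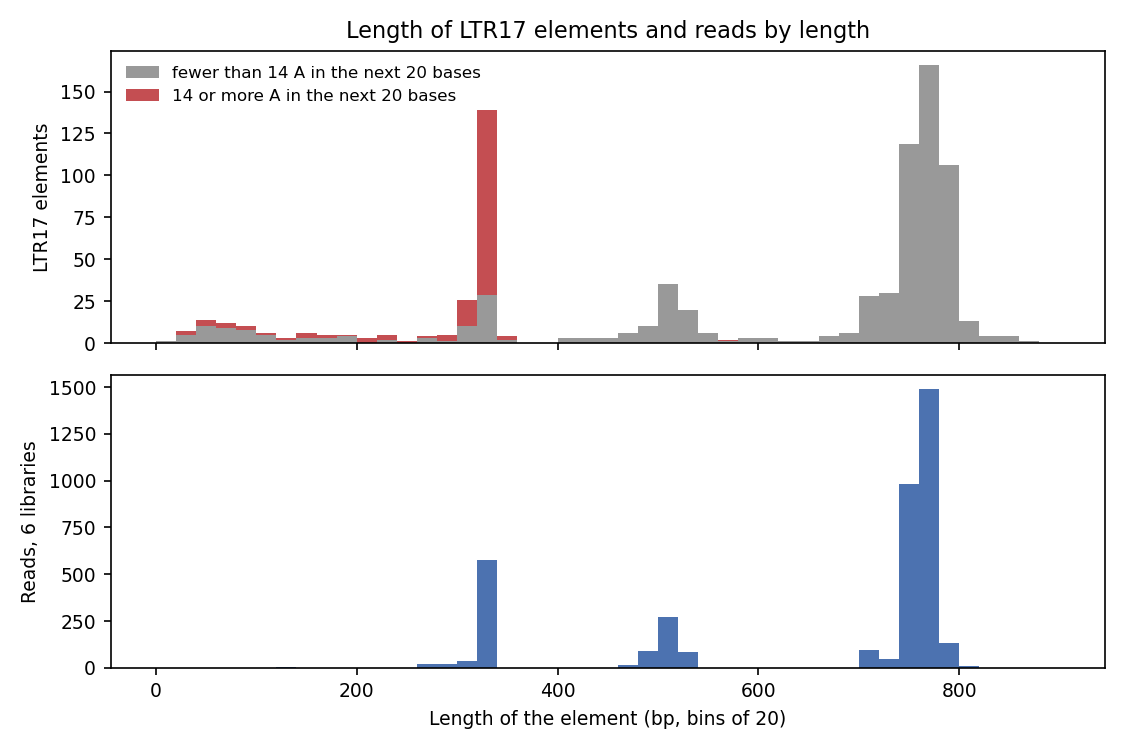
Number of LTR17 elements (top) and their reads summed over the 6 libraries (bottom) by element length in bins of 20 bp, with elements followed by an A-rich stretch in red. Most A-rich stretches sit at the peak between 280 and 360 bp (132 of 174), with 27 more after fragments below 280 bp and 1 after a longer element, and the whole copies of at least 700 bp hold 71.0% of the reads.

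All 3 sizes carried reads. Whole copies had 2758 of the 3885 LTR17 reads (7.65 reads per kb, all libraries summed), the 280 to 360 bp pieces had 636 (11.3 per kb) and the 430 to 560 bp pieces 463 (11.1 per kb). The fragments below 280 bp had 27 reads, and the elements between the 3 sizes had 0 and 1. Joined over gaps of at most 1000 bp, the elements made 779 loci. The 461 loci of LTR17 alone had 2515 reads, the 109 loci with LTR17 on both sides of an internal part 3155, the 110 with LTR17 on the 3' side only 1681, the 81 internal parts alone 322 and the 18 with LTR17 on the 5' side only 285. Reads per kb were highest for LTR17 alone (8.04) and lowest for internal parts alone (3.51). With gaps of at most 100 bp joined, LTR17 alone stayed highest (8.01), LTR17 on the 5' side only was lowest (2.78, against 3.39 for internal parts alone), and loci with both LTRs rose from 4.84 to 7.61.

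HERV-W took a small part of the LTR reads. Libraries had 355302 to 511408 reads on LTR elements, and in each library 1 read on 1000 bp of LTR was worth 0.899 to 1.34 TPM. LTR TPM was scaled over the LTR elements alone and is not on the same scale as gene TPM. The share of HERV17-int was 0.148%, 0.138%, 0.153%, 0.159%, 0.152% and 0.160% of these reads in the order of the libraries. The lowest 95% Wilson bound was 0.127% and the highest 0.172%, and the 2 libraries of CHLA 04 alone spanned most of the range. Without the single HERV17-int with the most reads, the one in RAB27A, CHLA 06 fell from 0.156% to 0.09996% and was the lowest, under CHLA 02 (0.112%), CHLA 04 (0.121%) and CHLA 05 (0.129%). The share of LTR17 was 0.129%, 0.174%, 0.172%, 0.159%, 0.109% and 0.133%. CHLA 04 (0.173% ± 0.000980, SD of 2 technical replicates) lay above CHLA 06 (0.121% ± 0.0169) with no overlap of libraries. Without the single LTR17 with the most reads, the one in GCNT1, CHLA 04 was at 0.143%, below CHLA 05 (0.159%) and still above CHLA 06 (0.121%) and CHLA 02 (0.117%). Wilson intervals cover counting error only, and the spread between cultures of a line was not measured.

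**Figure D2:**
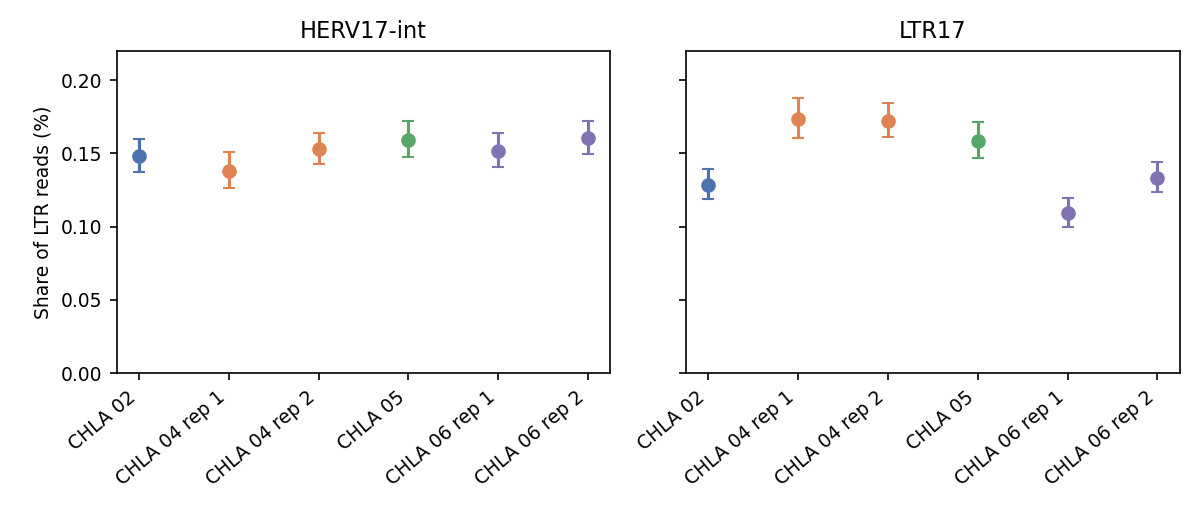
Share of all LTR reads (percent) on HERV17-int (left) and LTR17 (right) in each library, with 95% Wilson intervals for counting error and colors for the cell lines. HERV17-int sits between 0.138% and 0.160%, and LTR17 is at 0.172% and 0.174% in CHLA 04 and at 0.109% and 0.133% in CHLA 06.

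For comparison, HERV17-int had 4.66 and LTR17 8.06 reads per kb over all libraries, below the value for all LTR elements together (10.01). HERVH-int and LTR7, another family with many copies, had 5.48 and 7.63, HERV9-int and LTR12 had 8.999 and 9.69, and HERVE-int and LTR2 had 18.0 and 24.0. The reads were concentrated on few copies: the top 10 of 907 HERV17-int elements had 65.6% of the HERV17-int reads and the top 10 of 833 LTR17 had 39.3%. The single highest HERV17-int element had 25.4% and the highest LTR17 8.01%.

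Most copies gave no read. In none of the 6 libraries was a read found on 744 HERV17-int (82.03%) and 672 LTR17 elements (80.7%), against 83.7% of all LTR elements. A count of 0 allows up to 3 reads in a library, so these copies were below detection and not shown to be silent. With at least 5 reads in a library taken as detected, 44 HERV17-int (4.85%) and 68 LTR17 (8.16%) were detected, and 4.81% of all LTR elements were. Of these 112 members, CHLA 02 had 64, CHLA 04 78, CHLA 05 64 and CHLA 06 72, 32 were detected in all 4 cell lines, and 30 in 1 cell line only (CHLA 04 12, CHLA 05 7, CHLA 06 11, CHLA 02 0). In percent, 28.6% of the detected members were found in all 4 lines and 26.8% in 1 only, against 25.6% and 35.1% of the detected LTR elements of any family. CHLA 04 and CHLA 06 had 2 libraries in which an element could pass.

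Reads fell mostly on copies that lie in the orientation of a gene. Of the 1740 members, 210 lay in genes of their own strand only, 439 in genes of the opposite strand only, 28 in genes of both strands and 1063 outside the genes of the transcript files. The 210 on the gene strand had 4364 reads (28.1 per kb) and 57 were detected (27.1%). The 439 opposite to the gene had 262 reads (0.773 per kb) and 6 were detected (1.37%). Among the 63 detected members whose genes all lie on 1 strand, 57 (90.5%) thus pointed the same way as the gene. Over all LTR elements, 19.7% of those on the gene strand and 1.33% of those opposite to it were detected, with 44.6 and 2.99 reads per kb, so the contrast was not particular to HERV-W. Outside genes, 40 members were detected (3.76%, against 2.44% of all LTR elements). Their reads per kb there went the other way, with 2.65 for the members and 4.41 for all LTR elements. By place, 629 members lay in introns with 5459 reads, and 48 overlapped an exon with 301 reads. A stranded kit was used for all libraries, but whether the counting used strand is not given in the sources used here.

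**Figure D3:**
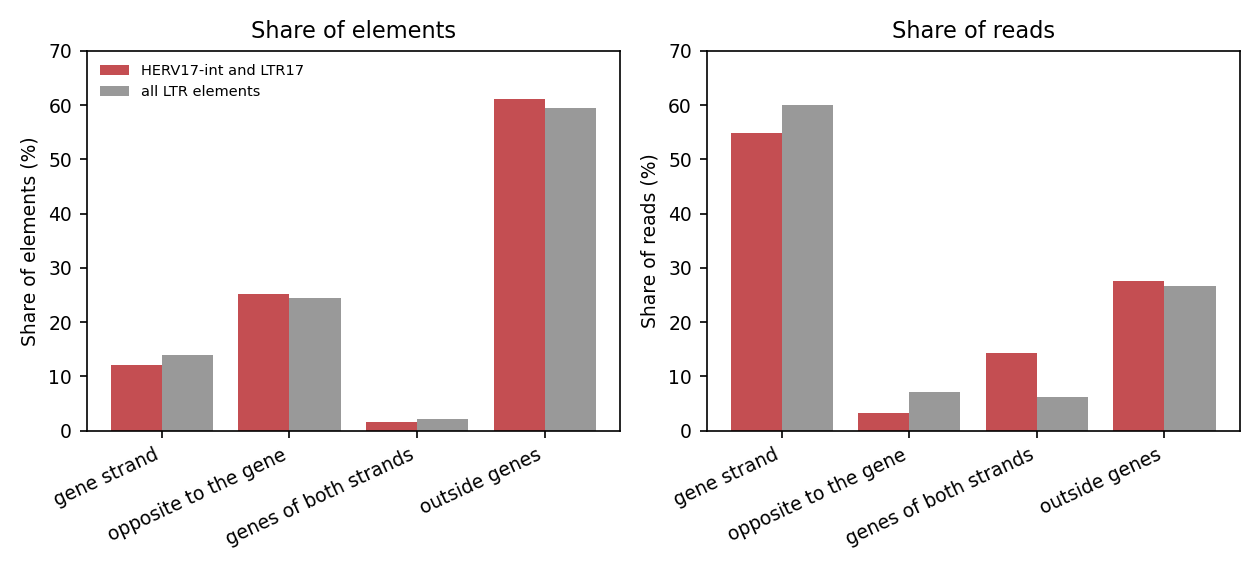
Share of elements (left) and share of reads summed over the 6 libraries (right), in percent, by strand of the overlapping genes, for HERV17-int and LTR17 (red) and all LTR elements (gray). Members on the gene strand are 12.1% of the elements and hold 54.8% of the reads, and those opposite to the gene are 25.2% of the elements and hold 3.29%.

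The highest member by reads was the HERV17-int of RAB27A, a small GTPase that docks secretory vesicles. It covers 6637 bp at chr15:55305210-55311846 (minus strand), in an intron and in the orientation of the gene. It had 167, 74, 145, 126, 253 and 269 reads, or 24.99, 14.9, 19.6, 20.9, 39.0 and 38.9 TPM. Both CHLA 06 libraries were the highest, and CHLA 04 was the lowest. RAB27A itself had 17.3, 5.91, 7.87, 25.9, 21.3 and 24.2 TPM in the same order, so the gene was also lowest in CHLA 04, but its highest value was in CHLA 05. The 500-bp LTR17 piece on its 5' side had 23, 12, 23, 9, 31 and 39 reads, again highest in CHLA 06. The 326-bp LTR17 on its 3' side (chr15:55304882-55305207) had 10, 2, 1, 1, 7 and 11 reads. Its highest mean TPM was in CHLA 02, 7.199-fold above CHLA 05 on mean TPM + 1. The 10 reads of CHLA 02 lay between the 7 and 11 of the CHLA 06 libraries, so these 2 lines were not told apart.

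The LTR17 in GCNT1, a Golgi glycosyltransferase that makes branched O-glycans, had the largest fold between cell lines among the members with at least 20 reads. It is a whole copy of 760 bp at chr9:76469231-76469990 (plus strand), in an intron and on the strand of the gene. It had 53, 111, 142, 0, 3 and 2 reads, or 69.3, 195.0, 168.0, 0, 4.04 and 2.52 TPM. CHLA 04 was at least 41.8-fold higher than CHLA 05, taking 3 reads in the CHLA 05 library as its upper limit. GCNT1 had 29.4, 61.6, 51.2, 0.06, 1.09 and 0.78 TPM in the same order, so that element and gene ranked the 4 cell lines alike.

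The copy in COBLL1, a cordon-bleu-like gene, was highest in CHLA 05 in all 3 of its parts. The 1051-bp HERV17-int at chr2:164658561-164659611 (minus strand, intron, gene strand) had 18, 21, 43, 104, 4 and 13 reads, or 17.0, 26.7, 36.8, 108.8, 3.90 and 11.9 TPM. CHLA 05 was 12.4-fold above CHLA 06 on mean TPM + 1, a log2 fold of 3.63. That log2 fold was 3.09 without CHLA 06 rep 1 and 4.49 without CHLA 06 rep 2. The adjoining 292-bp HERV17-int had 4, 3, 11, 15, 2 and 3 reads, and the 336-bp LTR17 on the 3' side 1, 4, 16, 30, 2 and 7. COBLL1 had 38.6, 62.1, 83.3, 208.7, 17.6 and 15.1 TPM, and its CHLA 05 level was 12.1-fold that of CHLA 06 on the same scale. The fold over CHLA 06 was 6.09 for the 292-bp part. The LTR17 was lowest in CHLA 02, with CHLA 05 25.04-fold above it, where the fold of the gene was 5.30.

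The 326-bp LTR17 in IQGAP2, a scaffold protein that binds calmodulin, was high in CHLA 02 and CHLA 04 and low in the other 2 cell lines. It lies at chr5:76447154-76447479 (plus strand, intron, gene strand) and had 21, 20, 23, 3, 3 and 5 reads. IQGAP2 had 216.2, 244.1, 237.4, 34.5, 44.03 and 59.2 TPM. The fold of CHLA 04 over CHLA 05 on mean TPM + 1 was 6.63 for the element and 6.81 for the gene. The 777-bp LTR17 in the lncRNA RP11-136K7.2 (LINC02197 in GENCODE v44, chr5:71397557-71398333, minus strand, intron) had 5 reads in CHLA 02, 22 and 23 in CHLA 06 and 0 in the 3 libraries of CHLA 04 and CHLA 05. The lncRNA had 1.57, 6.44 and 6.43 TPM where the element had reads and 0 in the other 3 libraries. CHLA 06 was at least 6.65-fold above CHLA 04 for the element, with 3 reads per library as the limit, and of the 125-bp windows in this copy 83.2% were unique in the genome.

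**Figure D4:**
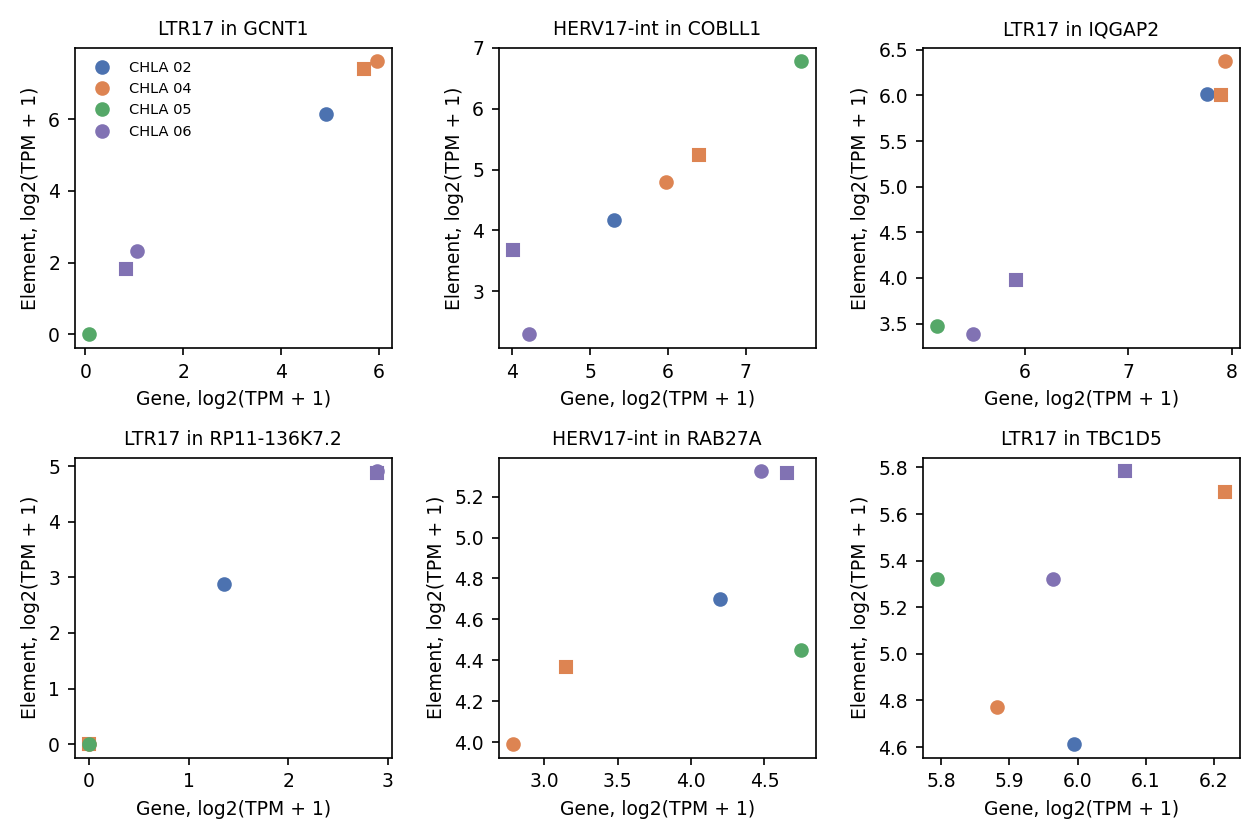
Element level against the level of the gene of the same strand that holds it, both as log2(TPM + 1), for 6 named elements with 1 point per library (squares are second technical replicates, colors are cell lines). LTR and gene TPM have separate scales. The GCNT1, COBLL1, IQGAP2 and RP11-136K7.2 elements were high where their gene was high, and the TBC1D5 element varied little.

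Over all members with at least 20 reads summed over the 6 libraries that lay in 1 gene of the same strand (42 elements in 28 genes, chromosome Y left out), the cell line with the highest element TPM was also the highest for the gene in 23. The correlation of element and gene, each as log2(TPM + 1) with the mean over its cell lines removed, was r = 0.65 over 168 element and cell line pairs. These pairs share libraries and in part genes, so r is a description. In 11 of the 42 the gene differed in the other direction between the same 2 cell lines. Of the 5 members opposite to their only gene, 1 had its highest cell line in common with the gene (r = 0.0098 over 20 pairs).

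Other high copies differed less between cell lines. The 762-bp LTR17 in TBC1D5, a GTPase-activating protein for Rab proteins (chr3:17735447-17736208, minus strand, intron, gene strand), had 18, 15, 43, 27, 29 and 43 reads, and the 2 libraries of CHLA 04 differed as much as the cell lines. The 752-bp LTR17 in PARPBP, a factor that restrains homologous recombination (chr12:102155388-102156139, plus strand), had 15, 13, 39, 22, 19 and 28. The 324-bp LTR17 in BRWD3, a bromodomain protein (chrX:80781172-80781495, minus strand), had 14, 8, 11, 11, 14 and 16. All 3 lie in introns on the strand of the gene, and in none were the highest and the lowest cell line 4-fold apart. Among HERV17-int, the 2 parts in C1QTNF3-AMACR (773 and 684 bp, chr5:34062502-34064272, minus strand) had 12 to 21 and 8 to 20 reads, and the 178-bp part in ARFIP1, which encodes arfaptin-1 (chr4:152841829-152842006, plus strand), had 2 to 8.

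The HERV17-int with the highest mean TPM was a 176-bp fragment in PCDH9, a protocadherin of neurons (chr13:66764998-66765173, minus strand, intron, gene strand). It had 32, 21, 6, 5, 11 and 14 reads, or 180.6, 159.3, 30.7, 31.2, 64.0 and 76.3 TPM. The technical replicates of CHLA 04 were thus 159.3 and 30.7 TPM, nearly as far apart as the highest and lowest cell line. PCDH9 had 267.4, 188.2, 123.8, 66.2, 336.3 and 188.2 TPM.

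The second HERV17-int by reads lies where 2 genes overlap. It covers 4016 bp at chr11:77858938-77862953 (minus strand), in an intron of AAMDC on the opposite strand and of the lncRNA RP11-91P24.7 on its own strand. It had 118, 106, 190, 63, 45 and 80 reads. CHLA 04 was highest at 35.3 and 42.5 TPM and CHLA 06 lowest on average at 11.5 and 19.1, with CHLA 05 at 17.2 between them. The lncRNA had 0.2 to 1.62 TPM. Similarly, the 777-bp LTR17 at chr18:57734822-57735598 (plus strand) lies opposite to ATP8B1, a phospholipid flippase, and overlaps an exon of the lncRNA RP11-35G9.5. It had 27, 21, 25, 17, 21 and 21 reads, an even level over the lines.

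**Figure D5:**
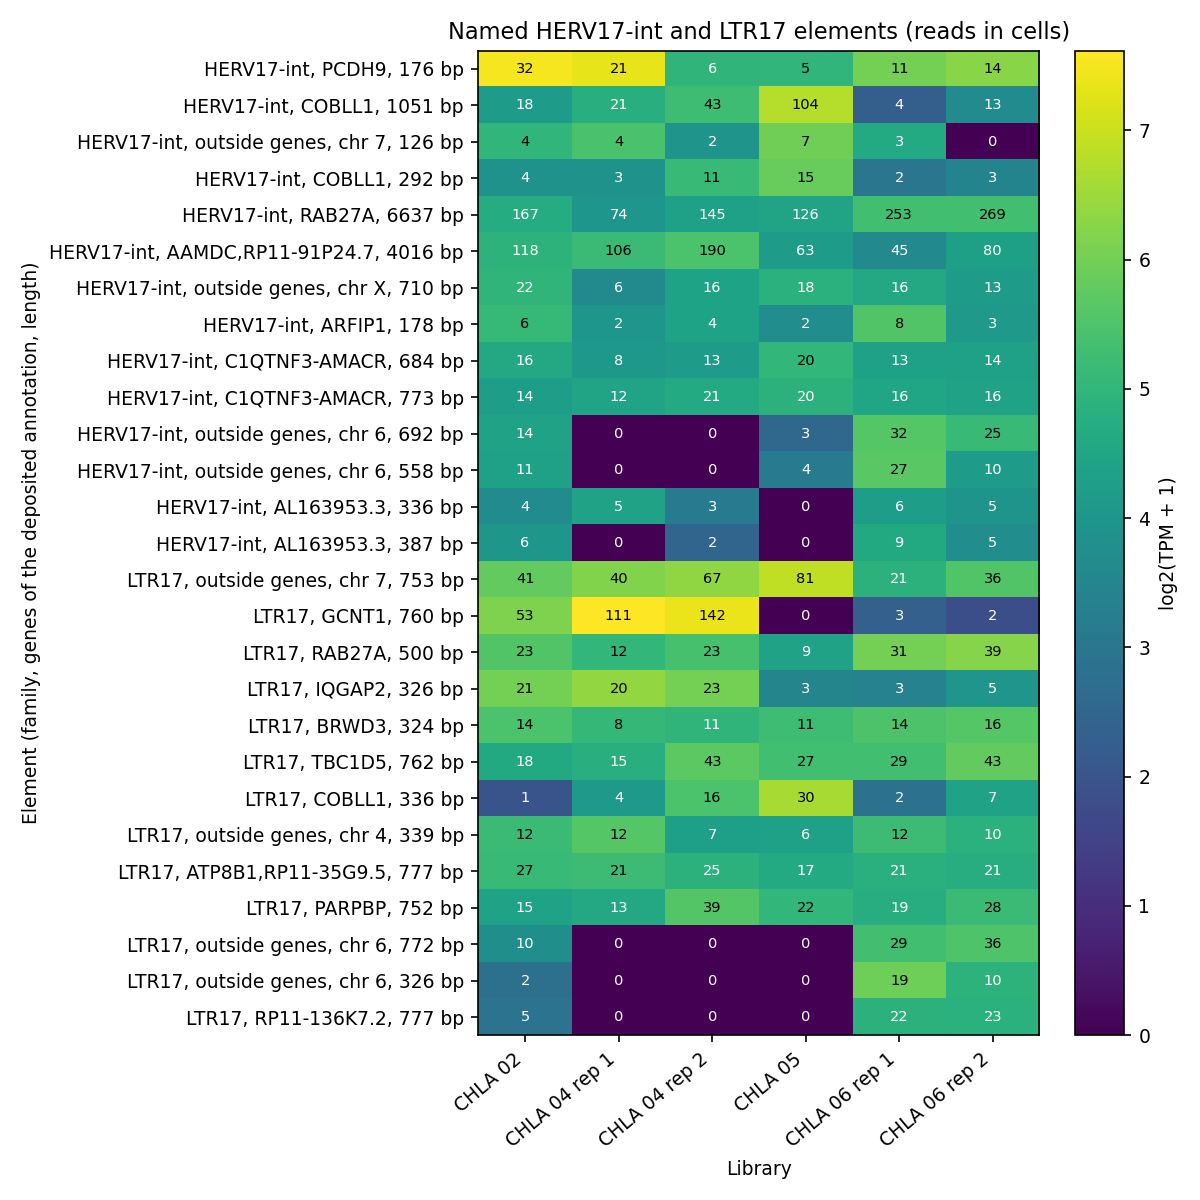
Level of the 27 named HERV17-int and LTR17 elements outside the ERVW-1 locus in the 6 libraries, with log2(TPM + 1) as color and the reads printed in the cells. Rows carry the family, the overlapping genes and the length, and are ordered by mean TPM within a family. The GCNT1 row runs from 142 reads to 0.

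Among the copies outside the genes of the files, the strongest was an LTR17 of 753 bp at chr7:35696265-35697017 (plus strand). It had 41, 40, 67, 81, 21 and 36 reads, or 54.1, 70.9, 80.0, 118.2, 28.6 and 45.8 TPM, the highest mean of any LTR17 with at least 20 reads. CHLA 05 was the highest and CHLA 06 the lowest, 3.12-fold apart on mean TPM + 1. GENCODE v44, a newer annotation of the same build, places it in an exon of the lncRNA HERPUD2-AS1 on the same strand. A 126-bp HERV17-int fragment just upstream had 4, 4, 2, 7, 3 and 0 reads. Of the 40 detected members outside the genes of the files, GENCODE v44 put 6 in a gene of the same strand and 1 in a gene of the opposite strand only. The 710-bp HERV17-int at chrX:107054162-107054871 (minus strand) had 22, 6, 16, 18, 16 and 13 reads and starts 9549 bp beyond the end of RBM41, the nearest gene upstream on its strand. The 339-bp LTR17 at chr4:190051558-190051896 (plus strand) had 12, 12, 7, 6, 12 and 10 reads, but only 58.1% of its 125-bp windows were unique.

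A pair of intergenic loci on chromosome 6 had reads in CHLA 06 and CHLA 02 and none in CHLA 04. The whole LTR17 at chr6:95354338-95355109 (plus strand) had 10 reads in CHLA 02, 29 and 36 in CHLA 06 and 0 in the libraries of CHLA 04 and CHLA 05. CHLA 06 was at least 9.58-fold above CHLA 04, with 3 reads per library as the limit. The copy at chr6:1330047-1331614 (minus strand) has 2 HERV17-int parts and a 326-bp LTR17 that is followed by an A-rich stretch. Its 692-bp internal part had 14, 0, 0, 3, 32 and 25 reads. Its 558-bp part had 11, 0, 0, 4, 27 and 10 and its LTR17 2, 0, 0, 0, 19 and 10, so CHLA 06 had the highest mean in all 3 parts and CHLA 04 no read. CHLA 06 exceeded CHLA 04 at least 8.47-fold, 5.56-fold and 4.33-fold in these parts. Without CHLA 06 rep 1 these bounds were 7.15, 2.86 and 2.86, and the LTR17 had fewer than 20 reads left. The nearest upstream genes on the same strand ended 1159680 bp and 292192 bp away.

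Counted over all members with at least 20 reads, 37 of 85 had a highest cell line at least 4-fold above the lowest on mean TPM + 1 with libraries that did not overlap (18 of 35 HERV17-int and 19 of 50 LTR17). Over all LTR elements this was 49.7%, and for the members 43.5%, close to that background. The median fold was 3.33 for the members and 3.97 for all LTR elements. Without chromosome Y, the count was 31 of 79, of which 12 lay outside genes, 17 in a gene of the same strand and 2 opposite to a gene. This split by place was not made for all LTR elements. The highest cell line among these 31 was CHLA 06 in 10, CHLA 04 in 9, CHLA 05 in 9 and CHLA 02 in 3. With chromosome Y kept, it was CHLA 05 in 15 of the 37, CHLA 06 in 10, CHLA 04 in 9 and CHLA 02 in 3. Among the 11823 such LTR elements of any family, chromosome Y also kept, it was CHLA 06 in 4281, CHLA 04 in 3094, CHLA 05 in 2993 and CHLA 02 in 1455. CHLA 05 was thus the most frequent among the members and CHLA 06 among all LTR elements, and CHLA 02 was the least frequent in both. Between technical replicates, 5 of the 85 members were 4-fold apart in CHLA 04 and 5 in CHLA 06, with median folds of 1.35 and 1.36. Variance between technical replicates was 2.01 times counting variance in CHLA 04 and 1.42 times in CHLA 06, over the 61 members with at least 10 reads in that line. For the members, the share 4-fold apart was 5.88% in each of these lines. Over all LTR elements it was 8.54% in CHLA 04 and 4.83% in CHLA 06, with variance ratios of 3.19 and 1.81. Some calls lay close to the limit of 20 reads. The 2 HERV17-int parts in AL163953.3 (chr14:53361643-53362365, plus strand) had 4, 5, 3, 0, 6 and 5 reads and 6, 0, 2, 0, 9 and 5, so that without 1 replicate of CHLA 06, whichever it was, fewer than 20 reads were left for each part and no call was made, as for the first part without CHLA 04 rep 1. Their log2 folds on mean TPM + 1 were 4.11 and 4.26, and 3.93 to 4.27 and 3.74 to 4.63 without a replicate. With 3 reads in the CHLA 05 library as the limit, CHLA 06 was only at least 1.66-fold and 2.12-fold above CHLA 05. AL163953.3 had 1.60, 2.53, 1.56, 1.92, 1.62 and 0.84 TPM, with the lowest mean in CHLA 06.

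The ERVW-1 locus was at or near 0. ERVW-1 lies on the minus strand of chromosome 7, and none of its 5 transcripts had a read in any library, which at 3 reads on the 2763-bp transcript ENST00000603053 allows up to 0.127 to 0.257 TPM. Its 5' LTR17 (chr7:92477413-92478192) had 1 read, in CHLA 02. Its 7890-bp HERV17-int (chr7:92468707-92476596), the longest of all members, had 2 reads, both in CHLA 04 rep 2. The 703-bp HERV17-int next to the 5' LTR17 and the 3' LTR17 (chr7:92467999-92468706) had 0. Of the 125-bp windows in these 4 elements, 97.6% to 100% were unique in the genome.

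GATAD1, a zinc finger protein gene near ERVW-1, had 32.8 to 47.9 TPM. SLC1A5, the amino acid transporter that serves as receptor of syncytin-1, had 47.8, 59.96, 66.3, 62.8, 40.1 and 46.5 TPM, and its relative SLC1A4, a second receptor, had 19.8, 23.9, 37.8, 52.9, 20.4 and 20.2. MFSD2A, a lipid transporter and the receptor of syncytin-2, had 5.47, 12.0, 28.2, 14.04, 1.498 and 1.30 TPM. RNA of all 3 receptor genes was thus found in all 4 cell lines, with MFSD2A lowest in CHLA 06. GCM1, the placental factor that activates the syncytin genes, had at most 0.333 TPM. Among other envelope genes, ERVFRD-1, which encodes syncytin-2, was listed at 0 in all 6 libraries, ERVH48-1, whose product suppressyn blocks SLC1A5, had at most 0.107 TPM, ERVV-1 at most 0.543, ERVMER34-1 at most 0.956 and ERVV-2 at most 1.78. ERVV-2 had reads in CHLA 02 and CHLA 06 and none in CHLA 04 and CHLA 05.

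Transcripts that begin in an LTR17 gave next to no reads. On the same strand, 12 transcripts of 8 genes in the files started inside 9 LTR17 elements, among them 3 of ERVW-1 and 1 of LINC00383. The transcript ENST00000586729 of RP11-35G9.5 had 1 read, and the other 11 had 0. The LTR17 in which it starts had 132 reads over the 6 libraries, and 6 of the 9 elements had 0. In GENCODE v44, 23 transcripts of 11 genes started in 12 LTR17, and 8 of these elements had no read. Of the 31 named elements, 24 had only 125-bp windows that occur once in the genome. Only exact matches of the full 125 bp were counted. Reads with mismatches or shortened by trimming are therefore not covered, and the placement of the reads themselves was not checked.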

How the data were processed

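Total RNA of 4 AT/RT cell lines was sequenced in 6 libraries as stranded 125 bp paired-end reads. The authors used CASAVA 1.8.2, FastQC and Trimmomatic, mapped to GRCh38 with the CLCbio Genomics Workbench, and deposited TPM per Ensembl transcript and, from a separate mapping, TPM per RepeatMasker LTR element. Treatment of reads with several matches and use of strand in counting are not given in the sources used here. Reads were recovered as whole multiples of TPM times length. In the LTR files 100% of the values judged came out whole, and in the transcript files at least 99.8%, to within 0.05 of a read or the rounding of the TPM. Recovery was tested on simulated data. Depth was 355302 to 511408 LTR reads and 10265899 to 20520229 transcript reads per library. Transcript TPM was added up for each gene identifier.

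An element was detected at 5 reads in a library. Cell lines were compared on mean TPM with a pseudocount of 1, among elements with 20 reads summed. With 1 biological sample per line no test was made, and the SD is that of technical replicates. Named elements were the 10 HERV17-int and 10 LTR17 with the highest mean TPM, the 5 largest folds of each family and every element at ERVW-1, and genes were their hosts and a list of envelope genes, receptors and neighbors, of which 1 is not reported here, nor are the sequences of the elements. RBM41, HERPUD2-AS1 and the 3' LTR17 in RAB27A are outside this rule and were chosen after their values were seen. The members and lists were chosen with earlier results of these data known. Elements of chromosome Y (40, of which 8 were detected) enter counts but are not named. Alternatives covered thresholds, filters, pseudocounts, quantile normalization, joining distances and each technical replicate left out. Genes were placed by the coordinates in the transcript files. Of 173113 transcripts, 167842 were found in GENCODE v44, and 99.98% of these overlapped in position. Motifs, tails and 125-bp windows were read from GRCh38 with pysam 0.24.0, overlaps used bedtools 2.31.1, and Wilson intervals and the lowess curve statsmodels 0.14.6.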

Additional observations from a re-analysis of the deposited data

How the results depend on the processing

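No paired analysis was possible because no result came from a test and the replicate numbers mark technical replicates within a cell line. On summed TPM in place of reads, HERV17-int took 0.0710%, 0.0656%, 0.0715% and 0.0615% in the lines numbered 02, 04, 05 and 06, and LTR17 took 0.102%, 0.134%, 0.123% and 0.0978%. Without the element with the most reads, HERV17-int held 0.112%, 0.121%, 0.129% and 0.09996% of reads, and LTR17 held 0.117% in CHLA 02 and 0.143% in CHLA 04. Leaving out a technical replicate gave 0.138% to 0.153% (CHLA 04) and 0.152% to 0.160% (CHLA 06) for HERV17-int, and 0.172% to 0.174% and 0.109% to 0.133% for LTR17.

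At 1 read, 163 of 907 HERV17-int and 161 of 833 LTR17 elements were detected, and at 10 reads 25 and 42. No read was found on 83.7% of all LTR elements, and no count over them is given at 10 reads. A threshold after the study's methods (1.38 TPM) gave 99 and 129, and 106864 of all 720177 LTR elements. It was set here at the peak of the lowess curve, whereas the study chose its own by inspection. Elements that differed between cell lines numbered 64 at 2-fold, 18 at 8-fold, 56 with 10 reads summed, 18 with 50, 90 without a filter and 20 with a pseudocount of 5. They numbered 41 with a pseudocount of 0.1, 37 on quantile-normalized TPM and 30 to 36 without a technical replicate. No share over all LTR elements is given at these settings, so the counts describe the members only. In the main setting that share was 49.7%, against 43.5% of the members. Loci with LTR17 on both sides fell to 59 when gaps of at most 100 bp were joined. At 1 read, 66.9% of detected members in genes of 1 strand had the orientation of the gene, and at 10 reads 91.4%. The counts without chromosome Y were chosen after seeing the data.

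Of 56 values of the named elements without 1 technical replicate, 46 kept the call, 10 lost it and 0 reversed. The losses were in the 126-bp HERV17-int on chromosome 7 (log2 fold 1.29 to 5.96), the AL163953.3 parts (3.93 to 4.27 and 3.74 to 4.63) and the 326-bp LTR17 on chromosome 6 without CHLA 06 replicate 1 (4.93), since fewer reads were then summed or, at chromosome 7 without CHLA 06 replicate 2, the fold fell below 4. No read was found on 81.4% of members, and at this depth low levels of these could not be told from 0.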
